A study of Caenorhabditis elegans with 2 samples.

Results

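Of the 14193 nuclear peaks in the pooled peak list of an MXL-1 ChIP-seq experiment, 824 (5.81%, 95% interval 5.43 to 6.20) had their summit in the 3' untranslated region (3'UTR) of a protein-coding gene, away from genes for structural small RNAs. They were chosen by the position of the summit in Ensembl's annotation of WBcel235, the assembly that ce11 names, and by a distance of over 250 bp from every tRNA, snoRNA, snRNA and rRNA gene. A further 16 summits in 3'UTRs lay closer to such a gene and were left out. Since being a peak was itself read from the signal, the signal of these peaks is given as a description and nothing is tested on it. Intervals are exact (Clopper-Pearson) intervals for a share and cover counting error only. Shares set side by side were not tested against one another.

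The chromatin came from whole Caenorhabditis elegans hermaphrodites, so cell types were not resolved. The young adults were of strain OP537, which carries the mutation unc-119(tm4063) III and the transgene wgIs537, from which MXL-1 is made with GFP and FLAG at its C-terminus. Larvae were held at L1 by starvation after bleaching, and worms were taken 67 hours after this synchronisation, and an antibody against GFP was used for the immunoprecipitation. Both samples were biological replicates of this 1 group, which leaves no second condition to compare, and the depth of each sample is unknown. The pooled list is labelled as peaks with background, so a weak entry need not be a binding site. A stricter list, set by the authors' reproducibility threshold, held 550 nuclear peaks, and its members are called thresholded here.

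A 3'UTR is the transcribed stretch between the stop codon and the polyadenylation site, and it is best known as the part of the mRNA read by RNA-binding proteins and microRNAs. In the compact worm genome a gene's 3' end often lies close to its neighbour, either tail to tail with a gene on the opposite strand or head to tail within an operon, whose downstream members are separated by trans-splicing. MXL-1 is a basic helix-loop-helix leucine zipper protein that pairs with MDL-1 in the worm Max network and binds the E-box CACGTG, which is usually described at promoters.

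Few of these peaks held that E-box, and the sites that lay in them are shown first because CACGTG is the sequence named above for MXL-1. The stretches below are 30 bases long, read from the RefSeq WBcel235 sequence on the strand of the host gene, with CACGTG in capitals. The first is the site of the only thresholded peak with CACGTG within 100 bp of its summit, that of T19H12.2, which encodes a protein related to the ANP32 nuclear phosphoproteins. Next come the sites of the peaks that follow it in signal among those shown, in cul-2 (a cullin, the scaffold of a ubiquitin ligase), mnk-1 (a MAP kinase-interacting kinase) and C05D11.8. The sites in puf-11 (a Pumilio-family RNA-binding protein) and mspn-1 were picked after their values were seen, for lying 8 and 2 bp from the summit. The second cul-2 site lay past the 3'UTR, 85 bp downstream of the summit.
T19H12.2, chrV:4891328-4891357, plus strand: atcattcccttcCACGTGtgtgcccaatat
cul-2, site 1, chrIII:13692645-13692674, plus strand: acactcttacggCACGTGgcaagtcataat
cul-2, site 2, chrIII:13692724-13692753, plus strand: gatcagcgatgcCACGTGtcaaagtgttct
mnk-1, chrII:10543501-10543530, minus strand: agacctgtaaaaCACGTGtacaaaatcaga
C05D11.8, chrIII:6421288-6421317, minus strand: aacgtgactcgtCACGTGgtgtcaaaagac
puf-11, chrIV:6423338-6423367, plus strand: ctaacccccactCACGTGtattattattat
mspn-1, chrIV:10180284-10180313, plus strand: caataaatcgatCACGTGaccccatctctt

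The bases directly 5' and 3' of the E-box varied among these sites. The site of T19H12.2 lay at -63 bp from the summit, where a minus sign means upstream on the gene's strand. Its peak had a pooled signal of 69.8, 39.3 in replicate 1 and 34.8 in replicate 2. The peak in cul-2 had 60.6, with 28.9 and 31.0, and its first site lay 6 bp from the summit. The peak in mnk-1 had 58.0, with 33.7 and 22.8, and that in C05D11.8 had 57.8, with 29.5 and 22.9. All of these had a summit in both replicate lists, with replicate values that lay close together at T19H12.2 and cul-2 and were higher in replicate 1 at mnk-1 and C05D11.8.

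CACGTG lay within 100 bp of the summit, on either strand, in 33 of the 824 peaks (4.00%, 2.77 to 5.58), and in 5.04% of all nuclear pooled peaks, which is within that interval. It was in 5.27% of the 12626 pooled peaks elsewhere in the genome and away from small RNA genes, and in 2.78% of windows of the same length centred on the longest 3'UTR of each of 16794 genes. The 33 peaks held 37 sites, 29 in a 3'UTR and 8 in a coding exon, at a median of 57.5 bp from the summit. The sequences above are a selection from the other chromosomes, as none is shown for the 9 peaks on chromosome I. Among these 9 was the peak of tfg-1, the second strongest of the 33, with a pooled signal of 64.3, 26.2 in replicate 1 and 34.6 in replicate 2. Among thresholded peaks the count was 1 of 30 (3.33%, 0.0844 to 17.2), beside 24 of 178 thresholded peaks elsewhere and away from small RNA genes (13.5%, 8.83 to 19.4). These intervals overlap, and 30 peaks are too few to place the share well.

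The other hexamers read at the summits were mostly about as frequent as at 3'UTR centres, with the exceptions of the polyadenylation signal and of CGCGCA. This last hexamer, which led at thresholded peaks away from small RNA genes in earlier results of these data, was within 100 bp of 22 summits (2.67%, 1.68 to 4.01), against 1.33% of the 3'UTR centres and 5.31% of the peaks elsewhere. At thresholded peaks it was at 0 of 30, which allows a share of up to 10.0%, and at 40 of 178 elsewhere (22.5%, 16.6 to 29.3). The E-box variant CAAGTG was at 69 summits (8.37%), against 8.54% of all nuclear peaks, and at 7 of the 30 thresholded ones (23.3%, 9.93 to 42.3), beside 13.5% of thresholded peaks elsewhere (8.83 to 19.4). CACATG, whose reverse complement is CATGTG, was at 45 (5.46%), against 5.87% of the 3'UTR centres and 7.64% of all nuclear peaks. At thresholded peaks this variant was at 0 of 30, which allows a share of up to 10.0%, beside 6.18% of thresholded peaks elsewhere. GTTCGA, the core of the box B element inside tRNA genes, was at 49 (5.95%, against 6.23% of the 3'UTR centres), and at 5 of the 30 thresholded ones (16.7%, 5.64 to 34.7), beside 16.3% of thresholded peaks elsewhere. The polyadenylation signal AATAAA on the gene's strand was within 100 bp of 233 summits (28.3%, 25.2 to 31.5), against 49.6% of 3'UTR centres. Of the 30 thresholded peaks 16 had it (53.3%, 34.3 to 71.7), an interval that holds the share of the centres. The sequence around the summits had a median GC content of 34.3%, between the 31.3% of 3'UTR centres and the 38.8% of pooled peaks elsewhere. The longest 3'UTRs had a median of 131 bp over all genes, so a window at the centre often took in the 3' end. Those of host genes had a median of 358 bp, and the summits lay a median of 135.5 bp before the gene's end. What part base composition and the place of the window had in these shares was not tested.

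The 3'UTR peaks had mostly low signals, with a median and quartiles near those of the pooled list, but did not reach its highest signals. Their signal ran from 25.6 to 117, with a median of 33.7 and quartiles of 28.9 and 41.6. Over all nuclear peaks the median was 31.7, the quartiles were 28.1 and 38.1 and the highest signal was 404. The strongest 3'UTR peak ranked 127 among the nuclear peaks, so none was among the 50 strongest. The thresholded list held 30 of the 824 (3.64%, 2.47 to 5.16), against 3.88% of all nuclear pooled peaks, so the share was near that of the whole list. Many of the other thresholded peaks lay at small RNA genes, which the selection of 3'UTR peaks leaves out. Among peaks away from small RNA genes, the thresholded share was 1.41% (1.21 to 1.63) outside 3'UTRs, with 0.852% in coding exons, 0.774% in introns, 1.47% in 5'UTRs and 2.38% outside protein-coding genes.

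The 30 thresholded peaks lay in 29 genes counted once each by their primary host, as csr-1 held 2 of them. Where a summit lay in the 3'UTRs of more than 1 gene, the primary host was the gene whose transcript end was nearest. That was so at 34 of the 824 peaks and 3 of the 30, where the rule itself favours a short distance to the end. The strongest was in ant-1.1, a mitochondrial ADP/ATP translocase, at chrIII:13464331-13464770, with a pooled signal of 117, 49.7 in replicate 1 and 69.1 in replicate 2. Its summit lay 212 bp after the stop codon and 101 bp before the gene's end, and the gene for the kinase cdk-5 ended 34 bp further on, on the opposite strand. The peak in pigq-1, at chrIV:11145909-11146348, had 113, with 61.7 and 51.7, and lay 23 bp before the gene's end. In both genes the summit lay nearer to the gene's end than to the stop codon, and the higher replicate was not the same one.

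The thresholded hosts are described here by the known role of each gene, an order chosen after they were seen and not a list that was tested. Among genes that act in protein synthesis and folding, the peak of rpl-3, a large-subunit ribosomal protein, lay at chrIII:3869320-3869759 with 112, 54.8 and 58.7, and its summit was 47 bp before the gene's end, where the opposite-strand gene tir-1 ended 2 bp further on. The peak of rpl-12, also of the large subunit, lay at chrIV:13239411-13239850 with 85.2, 43.9 and 43.9. These were among the most even pairs of replicate values of the 30. The nascent-chain factor icd-1 had 70.7, with 56.5 and 22.4, a difference of over 2-fold between the replicates. The chaperonin subunit cct-1 had 71.8, with 39.6 and 32.6, and the co-chaperone sgt-1 had 77.5, with 39.6 and 37.0, its summit 2 bp before the gene's end.

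Other hosts encode proteins that bind RNA or act in small RNA pathways, although no gene of the splicing or germline RNA lists had a thresholded summit. The RRM-domain genes sqd-1 and spn-4 had pooled signals of 84.4 and 84.1. In sqd-1 the replicate values were 55.4 and 27.5, and in spn-4, whose protein acts on maternal mRNAs in the early embryo, they were 30.3 and 53.99, so the higher replicate was not the same one. The gene for the LSM14-family protein car-1 had 83.3, with 47.1 in replicate 1 and no summit within 100 bp in replicate 2. The Argonaute gene csr-1 held peaks of 81.9 and 68.5 whose summits, at positions 7961903 and 7962108 of chromosome IV, lay within the same 440 bp, and the stronger of them had no summit in replicate 1 within 100 or 200 bp. The other such hosts were smut-1, with 80.5, 34.4 and 44.8, hrpk-1 (an hnRNP K protein), with 72.3, 32.9 and no match in replicate 2, ZK632.14 (an Alba-like nucleic-acid-binding protein), with 79.3, 34.2 and 43.6, and lotr-1 (an OST-type domain protein), with 70.0, 36.9 and 32.9.

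The remaining thresholded hosts had varied roles. In metabolism, Y82E9BR.3, annotated as an ATP synthase c subunit, had 109 with no match in replicate 1 and 43.6 in replicate 2, and its summit lay 1 bp from the end, in a 3'UTR shared on the opposite strand with lelo-2. The cytochrome oxidase subunit gene cox-4 had 73.9, with 41.9 and 39.7, and the lipid droplet gene plin-1 had 73.1 with no match in replicate 1 and 51.0 in replicate 2. The nuclear transport GTPase gene ran-1 had 80.8, with 26.8 and 52.4, at a summit also in the 3'UTR of rib-2. Among regulators, the zinc finger gene lin-29, which acts in the larva-to-adult switch, had 79.9, with 30.8 and 48.8, the zinc finger gene tlp-1 had 70.3, with 37.6 and 30.5, and rsa-1, a regulatory subunit of phosphatase 2A, had 78.6, with 43.5 and 37.2. W08E12.7, F35G2.1, F15B9.10, Y71H2AM.3, zig-11 and lsy-22 had pooled signals from 67.9 to 90.0. The summit of F35G2.1, at 86.8, was the only one of the 30 that RefSeq did not place in a 3'UTR. The end of this gene overlapped a same-strand non-coding RNA gene, F35G2.7, at a gap of -143 bp, where a minus sign means overlap. F15B9.10 was, with sqd-1 and icd-1, 1 of the 3 whose replicate values differed by over 2-fold, at 22.2 and 46.0.

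**Figure D1:**
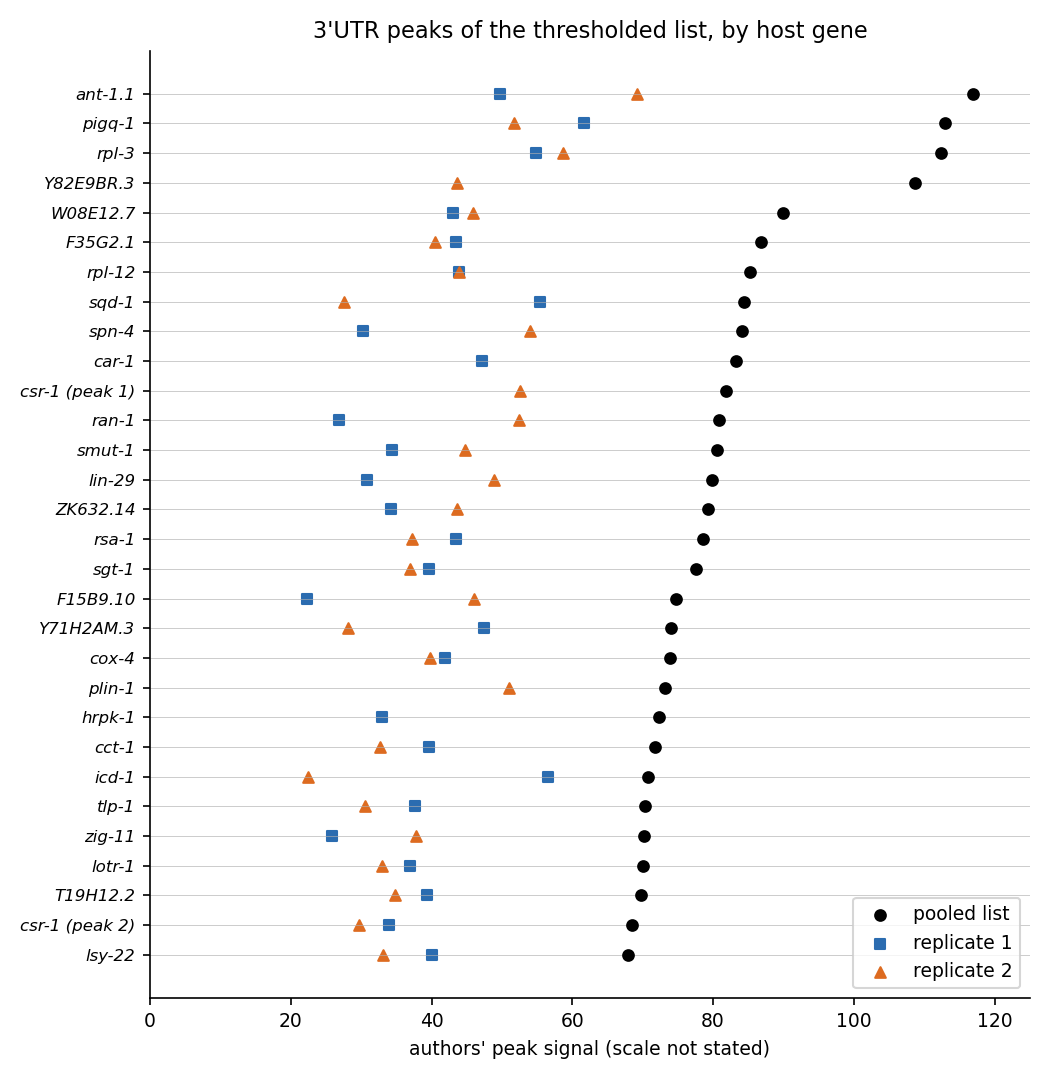
Authors' peak signal (horizontal axis, no stated scale) of the 30 thresholded 3'UTR peaks, 1 line for each peak by host gene, in the pooled list (circles) and at the matching summit of replicate 1 (squares) and replicate 2 (triangles). The pooled values fall from 117 at ant-1.1 to 67.9 at lsy-22, and 5 lines lack a replicate point because no summit lay within 100 bp.

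The plot of the thresholded peaks by host gene shows that the pooled value lay above both replicate values in every line, so pooled and replicate signals are compared here only within their own list. At the threshold the values ran on without a gap. The 5 peaks just inside it were those of zig-11 (70.1), lotr-1 (70.0), T19H12.2 (69.8), csr-1 (68.5) and lsy-22 (67.9). The 5 just outside it were those of pde-6 (a phosphodiesterase, 67.5), dnj-20 (a DnaJ-type co-chaperone, 67.5), nlp-24 (a neuropeptide-like gene, 66.9), hsp-1 (an Hsp70-type chaperone, 66.5) and vha-2 (a proton pump subunit, 66.1). Of these 5, dnj-20 and hsp-1 had no match in replicate 2, with 27.6 and 36.1 in replicate 1.

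Replicate support is given as a description, since the pooled signal that ranks the peaks and sets the threshold was made from the same replicates. A summit within 100 bp was in the replicate 1 list for 535 of the 824 peaks (64.9%) and in the replicate 2 list for 495 (60.1%). It was in both for 277 (33.6%, 30.4 to 37.0), beside 31.0% of all nuclear pooled peaks, and in neither for 71 (8.62%). Split by signal into 3 parts, the strongest 274 peaks had 181 in both lists (66.1%), the middle 275 had 75 (27.3%) and the weakest 275 had 21 (7.64%). Of the 30 thresholded peaks 25 were in both (83.3%, 65.3 to 94.4), and 166 of the 178 thresholded peaks elsewhere and away from small RNA genes (93.3%, 88.5 to 96.5). Of the 5 that were not, Y82E9BR.3, car-1, plin-1 and hrpk-1 had the missing summit within 200 bp, and the stronger csr-1 peak did not.

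Where both replicates had a summit, neither was the stronger on the whole. Replicate 1 had the higher signal at 138 of the 277 peaks, the median log2 ratio of replicate 1 to replicate 2 was -0.0013 (quartiles -0.44 and 0.31), and 257 (92.8%) differed by no more than 2-fold. The replicate signals are on the authors' scale and were not rescaled here.

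**Figure D2:**
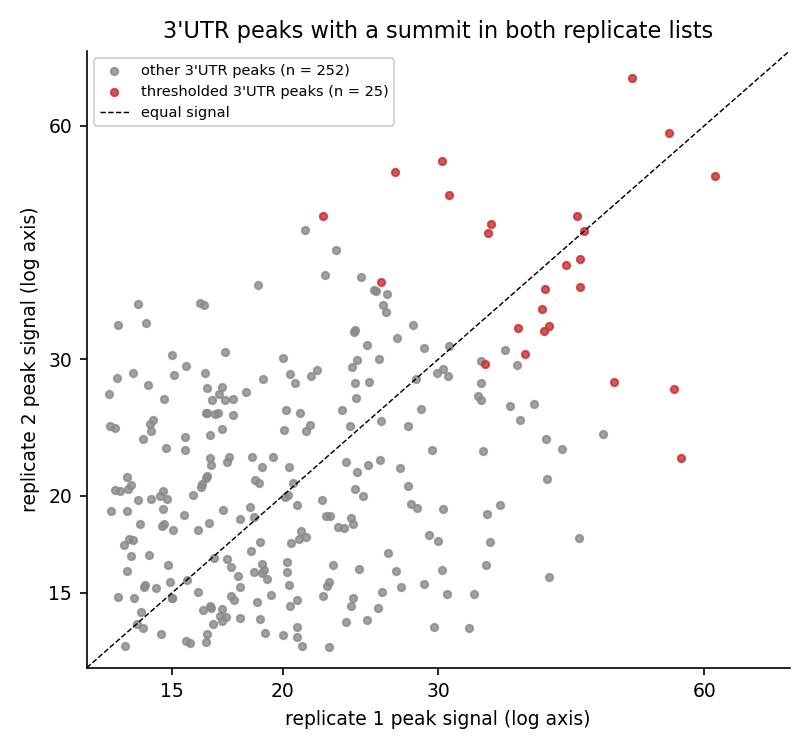
Authors' peak signal of the 277 3'UTR peaks with a summit within 100 bp in both replicate lists, replicate 1 on the horizontal and replicate 2 on the vertical axis, both logarithmic, with the 25 thresholded peaks in red. Points lie on both sides of the line of equal signal, 138 with the higher value in replicate 1, and the thresholded peaks fill the upper right.

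The plot of replicate signals shows a wide cloud around the line of equal signal. The lower edges of the cloud are the weakest entries that each list holds, so this spread covers only peaks that both lists kept.

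Within the gene, thresholded summits lay toward the 3' end. Over all 824 peaks the summit was a median of 186.5 bp after the stop codon (quartiles 67 and 400) and 135.5 bp before the end of the gene (57 and 307), or 57.4% of the way from the stop codon to the gene's end. For the 30 thresholded peaks the medians were 262.5 bp after the stop codon, 59 bp before the end and 72.5% of the way. Summits within 100 bp of the end made up 337 of the 824 (40.9%, 37.5 to 44.3) and 19 of the 30 (63.3%, 43.9 to 80.1). The peak regions were all 440 bp wide, which was longer than the whole 3'UTR at 470 peaks (57.0%). The peak region ran past the end of the gene at 539 (65.4%) of the 824 and at 24 of the 30, so the 3'UTR is the position of the summit and not the extent of the peak.

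**Figure D3:**
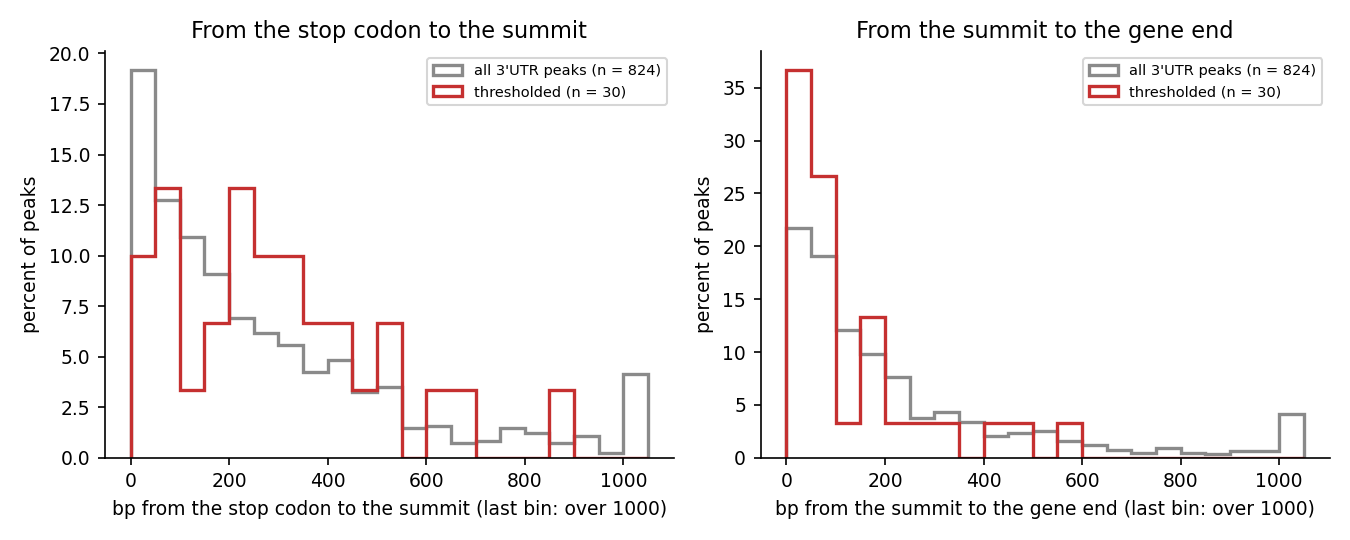
Percent of peaks (vertical axis) by distance in bp, in bins of 50 bp with the last bin for distances over 1000 bp, from the stop codon to the summit (left) and from the summit to the gene's end (right), for all 824 3'UTR peaks (grey) and the 30 thresholded ones (red). The thresholded summits gather in the 100 bp before the gene's end, with 19 of 30 there against 337 of 824.

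The distance plots also show that the whole set had its commonest positions in the first 50 bp after the stop codon and in the last 50 bp before the gene's end, while the thresholded peaks had theirs before the gene's end. The thresholded peaks are part of the 824, and the difference in position between them was not tested. The host genes had long 3'UTRs, with a median of 358 bp for the longest annotated one, against 131 bp over all genes with one. A longer 3'UTR offers more bases for a summit, and this was not tested. Most summits were in no other annotated feature of a coding gene, as 729 (88.5%) were in a 3'UTR only and the others were also in a coding exon, a 5'UTR or an intron of some transcript. RefSeq's annotation also placed 798 (96.8%) in a 3'UTR.

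Past the 3' end, the most frequent of the arrangements read was an overlapping neighbour on the opposite strand, tail to tail with the host. The next downstream protein-coding gene was on the opposite strand at 415 of the 824 peaks (50.4%, 46.9 to 53.8), against 45.7% of all genes with a 3'UTR, and at 19 of the 30 thresholded peaks (63.3%, 43.9 to 80.1). It was on the opposite strand and overlapped the host gene at 231 (28.0%, 24.99 to 31.2), against 18.9% of all genes and 19.6% when each gene was weighted by the length of its longest 3'UTR. Among thresholded peaks the overlapping arrangement was at 12 of 30 (40.0%, 22.7 to 59.4). An opposite-strand gene that began or ended up to 500 bp away without overlap was found at 111 (13.5%, against 12.4% of all genes).

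The 12 thresholded peaks with an overlapping opposite-strand gene were grouped by that overlap, and some of them are given here. Gaps below 0 give the overlap in bp. Between cct-1 and T05C12.8 the gap was -117 bp, and between ran-1 and rib-2, a gene of heparan sulphate synthesis, it was -95 bp. In smut-1 and crt-1, the gene for the calcium-binding chaperone calreticulin, the gap was -92 bp, and the summit lay 4 bp from the end of smut-1. In ZK632.14 and cnx-1, the gene for calnexin, it was -49 bp, in rsa-1 and the nucleolar protein gene dao-5 -5 bp, in lin-29 and hmg-12 -2 bp and in zig-11 and the chaperonin gene cct-7 -28 bp. At such peaks the signal cannot be assigned to 1 of the neighbours, and 33 of all 824 summits (4.00%), 3 of them thresholded, lay in the 3'UTR of an opposite-strand gene as well.

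Operon-like spacing was read from the gap alone, since no annotation of operons was used. A same-strand gene without overlap within 500 bp followed the host at 194 peaks (23.5%, 20.7 to 26.6), against 19.1% of all genes and 20.8% weighted by 3'UTR length, and at 5 of the 30 thresholded peaks (16.7%, 5.64 to 34.7). The weighted share lies within the interval of the 824. The 5 were rpl-12, sqd-1, sgt-1, icd-1 and lotr-1, with gaps of 172, 103, 187, 1 and 352 bp to tag-115, lsm-8 (a protein of the U6 snRNA complex), R05F9.9, C56C10.7 (a homologue of a trafficking complex subunit) and cdc-5L (a cell division cycle 5-like protein). Of all 824, the nearest same-strand neighbours, after that of icd-1, followed ergi-3 at 1 bp, F46H5.7 at 3 bp, hat-1 at 7 bp and the ribosomal protein gene rla-2 at 12 bp. Those 4 peaks were weak, at 29.4, 36.4, 27.0 and 31.8, and hat-1 and rla-2 had no match in replicate 1. Neighbours over 2000 bp away were found at 119 peaks (14.4%, 12.1 to 17.0), against 20.4% of all genes and 20.9% weighted. The median gap to the next gene was 106 bp, against 437 bp over all genes.

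**Figure D4:**
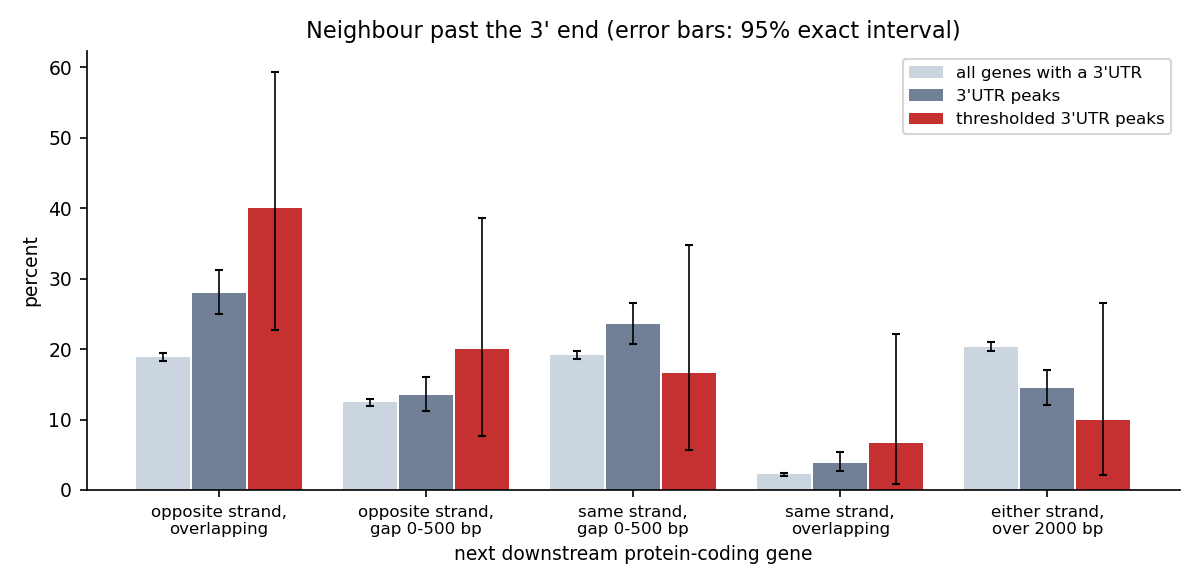
Percent (vertical axis) of all genes with a 3'UTR (pale), of the 824 3'UTR peaks (grey-blue) and of the 30 thresholded ones (red) by strand and gap of the next downstream protein-coding gene, with exact 95% intervals as error bars. The opposite-strand overlapping class holds 18.9%, 28.0% and 40.0%, and the class over 2000 bp away 20.4%, 14.4% and 10.0%.

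The plot of neighbours shows the orders of the overlapping and the distant class running in opposite directions over the 3 sets, with intervals for the 30 thresholded peaks that overlap those of all 824. The 440 bp peaks and the genes' lengths were not matched between these sets.

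A neighbour's promoter also came within reach of some 3'UTR summits. Of the 824, 252 (30.6%, 27.5 to 33.9) lay in the promoter window of another gene, which reached 1000 bp upstream and 200 bp downstream of each transcript start, and for 241 that gene was the next one downstream. With the host's own promoter included, 258 summits (31.3%, 28.2 to 34.6) were in a promoter window, near the 33.6% of all nuclear pooled peaks and the 34.0% of peaks elsewhere and away from small RNA genes. In 566 (68.7%) the summit was in no promoter window of any gene, and 25 of these held CACGTG (4.42%, 2.88 to 6.45), against 8 of 258 in promoter windows (3.10%, 1.35 to 6.02). Of the 30 thresholded summits 7 were in a promoter window (23.3%, 9.93 to 42.3), beside 87 of 178 thresholded peaks elsewhere and away from small RNA genes (48.9%, 41.3 to 56.5). The 7 were those of rpl-12, sqd-1, sgt-1, icd-1 and lotr-1, whose next gene's promoter it was, the stronger csr-1 peak, at the promoter of frpr-10, and ant-1.1, at that of kel-3. The gene frpr-10 is on the strand of csr-1 and overlaps it, with a gap of -4354 bp. Neither of the csr-1 summits was in a 3'UTR only.

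Host genes were also examined at their other end. A pooled peak outside 3'UTRs lay in the promoter window of the gene itself for 324 of 809 host genes (40.0%, 36.7 to 43.5), against 24.0% of all genes with a 3'UTR and 30.1% when weighted by the length of the longest 3'UTR. Among the 32 genes whose 3'UTR held a thresholded summit, 16 had one. In rpl-3 and pigq-1 the promoter peak was itself thresholded, which is 2 of the 32 (6.25%, 0.766 to 20.8). The same held for 2.35% of the 809 host genes and 1.14% of all genes with a 3'UTR. That of rpl-3, at chrIII:3867309-3867748, had 159, 74.1 and 83.8 and stood above the 112 of its 3'UTR peak, and that of pigq-1, at chrIV:11146983-11147422, had 75.4, 37.4 and 37.9 and stood below the 113 of its 3'UTR peak.

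Of the 16794 genes with an annotated 3'UTR, 809 held a member (4.82%). Among the lists of host genes, translation factors, splicing genes, germline RNA genes and nutrient-sensing genes had intervals that lay above this share, and nuclear hormone receptors one that lay below it. Translation factors had 8 of 39 (20.5%, 9.30 to 36.5), led by eef-2 (an elongation factor) with 61.4, 22.3 and 38.6. Splicing genes had 6 of 31 (19.4%, 7.45 to 37.5), led by the SR protein genes rsp-6, with 65.7, 36.9 and 29.5, and rsp-8, with 65.7, 46.1 and 24.0. P granule and germline RNA genes had 7 of 32 (21.9%, 9.28 to 39.97), led by pie-1 (52.6, in replicate 2 only at 33.4), the helicase gene glh-1 (49.3, 18.8 and 37.4), pos-1 (47.4, in replicate 2 only at 14.2) and gld-1 (45.2, in replicate 1 only at 32.6). None of these 3 lists held a thresholded summit. Their 3'UTRs had medians of 250, 224 and 304 bp, against 131 bp over all genes, and the part of this length was not tested.

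Ribosomal protein genes, whose 3'UTRs are short at a median of 56 bp, had 6 of 79 (7.59%), among them rpl-3, rpl-12, rps-7 (57.7, with 42.8 in replicate 1 only) and rpl-21 (41.5, 22.4 and 15.3). Per 100 kb of longest 3'UTR this came to 111 peaks, against 22.7 over all genes, 68.1 for translation factors, 60.9 for splicing genes and 51.8 for germline RNA genes. Histone genes, with only 2 peaks, had 154, respiration genes 56.9, ubiquitin and proteasome genes 54.8 and nutrient-sensing genes 48.4. The lowest densities among lists with a member were 11.5 for nuclear hormone receptors, 13.3 for transporters and 17.9 for homeobox genes. A peak of 440 bp covers the whole of a 3'UTR of 56 bp and the bases on both sides of it. Respiration genes had 4 of 45, led by cox-4, atp-2 (44.3, replicate 1 only) and atp-5, and ubiquitin and proteasome genes 4 of 37, led by the proteasome gene rpn-11 (44.5, 16.3 and 28.8). Histone genes had 2 of 8, his-72 and his-24, tRNA synthetase genes 2 of 32, and actin, myosin and tubulin genes 2 of 30. Of the heat shock genes hsp-1 alone, of 18, had a member.

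Nutrient-sensing genes had 3 of 11 (27.3%, 6.02 to 60.97), with long 3'UTRs at a median of 637 bp, namely hlh-30 (the worm TFEB, 49.5, 27.7 and 24.6), the insulin receptor gene daf-2 with peaks of 34.9 and 32.9, and skn-1 (29.4, in neither replicate list). Nuclear hormone receptors had 5 of 245 (2.04%, 0.666 to 4.70), led by nhr-119 (37.7, with 16.7 in replicate 1 only), homeobox genes 4 of 73, led by ceh-19 (53.4, 20.1 and 24.3), and transporters 2 of 69. The list of collagen and cuticle symbols had 5 of 173, led by dpy-14, and one of its hits, dpy-26, does not encode a collagen. Vitellogenin genes had 0 of 6 (0 to 45.9%), and no major sperm protein gene had an annotated 3'UTR. Of the 7 Max network genes none held a 3'UTR peak (0 to 40.96%), a list too short to place the share. Pooled peaks lay elsewhere in mdl-1 (1 peak, 72.7), mxl-3 (2 peaks, the stronger 34.6) and sin-3 (1 peak, 32.4).

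Several peaks could fall in 1 gene, so peaks and genes are not independent counts. Of 776 primary host genes 46 had more than 1 member, and gpb-1 (a G protein beta subunit) and W06H8.6 had 3 each. In gpb-1 the pooled signals were 46.9, 39.0 and 28.7, only the strongest with a summit in both replicates, at 20.6 and 20.8. In 96 of the 824 peaks (11.7%) the summit lay less than 440 bp from that of another, so that the peak regions overlapped.

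Chromosome X held few of these peaks. It had 66 of the 824 (8.01%, 6.25 to 10.1), against 18.1% of the annotated 3'UTR bases and 18.6% of all nuclear pooled peaks, and 0 of the 30 thresholded peaks, which allows a share of up to 10.0%. Per 100 kb of 3'UTR there were 10.1 peaks on X, 18.4 on V, 23.3 on II, 27.0 on I, 28.7 on III and 31.3 on IV. The strongest peaks on X were those of igcm-3 (49.8) and ipla-2 (49.2). In each replicate taken alone, with as many of its strongest peaks as the pooled list holds, the share on X was 8.00% in replicate 1 and 10.6% in replicate 2, so both were below the share of 3'UTR bases. Chromosome IV had the highest density of 3'UTR peaks of the 6 and X the lowest.

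**Figure D5:**
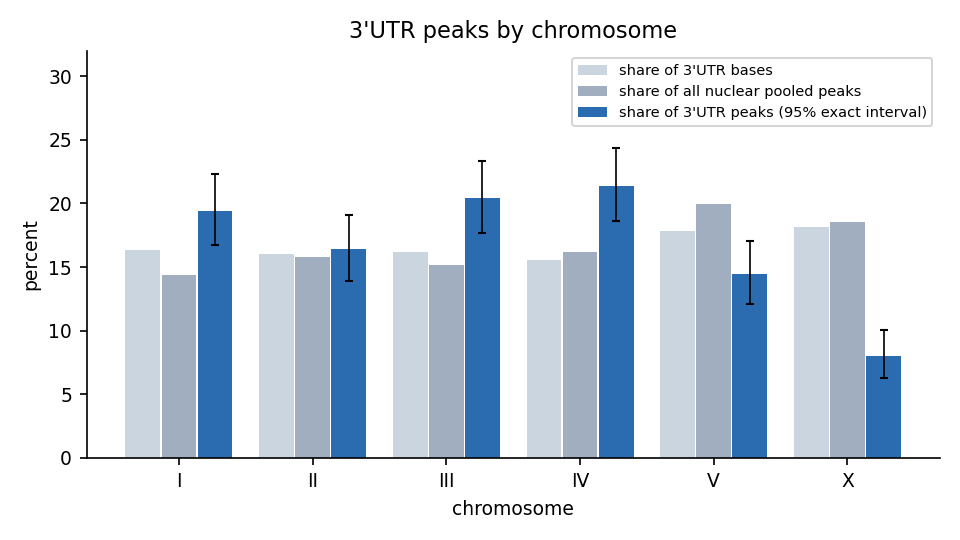
Percent (vertical axis) of annotated 3'UTR bases (pale), of all nuclear pooled peaks (grey) and of the 824 3'UTR peaks (blue, with exact 95% intervals) on each chromosome. On X the 3'UTR peaks stand at 8.01% beside 18.1% of the bases and 18.6% of all peaks, and on IV at 21.4% beside 15.5% and 16.2%.

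The plot by chromosome shows that X and V lay below their share of 3'UTR bases and I, III and IV above it, with II at about its share. Gene content and expression on each chromosome were not matched, and their part in the result was not tested.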

How the data were processed

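MXL-1-GFP ChIP-seq peaks of 2 biological replicates, per the labels, were read from the deposited ce11 peak lists of each replicate, of the pooled replicates and of the thresholded peaks. The signal and the −log10 q value of each peak are the authors' values as deposited. The aligner, the caller and the signal's scale are likewise not given in the sources used here; depth is unknown. The signal ranked and described peaks within a list, and the q value was not used. Neither the ce10 lists nor the possible control experiment of the labels was used here.

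The members, gene lists and hexamers were chosen with earlier results of these data known. Genes came from Ensembl release 115 and sequence and a second 3'UTR annotation from RefSeq, both on WBcel235, the assembly of ce11. Positions are 1-based, and the summit was set from the offset in the list. Summits within 100 bp were matched between lists, and hexamers were read within 100 bp of the summit on both strands, AATAAA also on the gene's strand. The next downstream gene was the nearest protein-coding gene past the gene's end on either strand. Gene lists were patterns on gene symbols. The named peaks were the 20 strongest, all thresholded, 5 on either side of the threshold, the 5 strongest with CACGTG, the 4 strongest of each list and the 5 with the nearest same-strand gene. Other names were chosen after their values were seen. Position and matching steps were tested on planted positions. Exact 95% intervals cover counting error only, and an upper limit for a count of 0 used 3 counts. No test between groups was possible with 1 group. Python 3.11.15, numpy 2.4.6, pandas 2.3.3, scipy 1.17.1 and matplotlib 3.10.9 were used.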

Additional observations from a re-analysis of the deposited data

How the results depend on the processing

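The number of 3'UTR peaks lay between 729 and 840 under other distances from small RNA genes, other 3'UTR annotation and summits in a 3'UTR only, and between 752 and 813 in the strongest peaks of a single replicate. The thresholded count fell to 4 (0.485%) when the threshold was raised to keep the stronger 50% of the thresholded peaks. It was 29 to 36 (3.86 to 4.43%) when the strongest peaks of 1 replicate alone took its place. The share with a summit in both replicates was 19.7% within 50 bp, 47.7% within 200 bp and 23.5% with replicate lists of the pooled length. The share in another gene's promoter window was 20.5% from 500 bp upstream and 46.0% from 2000 bp upstream. CACGTG was within 50 bp of 1.94% and within 250 bp of 9.22% of summits. A same-strand gene followed within 200 bp at 16.7% and within 1000 bp at 29.4% of peaks. The shares read by window or matching distance rose with a wider window and fell with a narrower one, or with shorter replicate lists. Why the thresholded count fell as far as 4 was not tested. The share on X, an alternative chosen after seeing the data, was 0 among the 30 thresholded peaks and 8.00 to 10.6% in 1 replicate alone; the cause was not tested. The other settings moved values by less than their interval or 1.5 times. No paired analysis was possible because both samples belong to 1 group. Most of these peaks, like most of the pooled list, had signals below the threshold, which limits what can be said of a single one.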
